A study of Mus musculus with 6 samples.

Results

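Chemokines are small secreted proteins that direct the movement of leukocytes, and chemokine receptors are the G protein-coupled receptors through which cells sense them. The genes described here are the 57 rows of the count tables whose symbol is that of a Ccl, Cxcl, Xcl or Cx3cl ligand (39 genes) or of a Ccr, Cxcr, Xcr or Cx3cr receptor (18 genes), out of 24422 genes in all. Changes are given for the 40 genes with at least 10 counts in 3 or more libraries, of which 27 are ligands and 13 are receptors, and the other 17 are given by their counts. Poly-A RNA was sequenced from whole kidneys of C57BL/6 mice at postnatal day 60, all fed a diet with 220 ppm iron. The 2 groups were Control (wild type, 3 libraries) and TfR1KO;KspCre (Tfr1f/f;KspCre, 3 libraries), in which floxed exons of the transferrin receptor gene are removed by a Cre recombinase under the Ksp-cadherin promoter. That promoter is active in the distal nephron, so the other cells of the kidney, leukocytes included, keep the gene. The 3 TfR1KO;KspCre libraries are called knockouts 1 to 3 after their labels. The comparison asks which transcripts differ in the kidney when this receptor is deleted in the distal nephron.

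Chemokines are named after the spacing of their first cysteines (CC, CXC, XC and CX3C). In the kidney, tubular cells, vessels, fibroblasts and resident macrophages release them, and inducible chemokines are known to draw monocytes, T cells or neutrophils into injured tissue. Many inducible chemokine promoters carry sites for NF-kB, a transcription factor switched on by inflammatory cytokines and by cell injury, and some carry an interferon-stimulated response element (ISRE).

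Total counts ranged from 11501053 (knockout 3) to 21001341 (control 1). On the first principal component, which held 69.4% of the variance, the controls lay between -72.6 and -53.2, knockouts 2 and 3 at 88.6 and 82.1, and the library labelled knockout 1 at 9.67. Sex-linked transcripts set control 2 apart from the rest, and the labels give no sex. Control 2 had 52 counts of Xist and 3980 of Y-linked genes. Every other library, all knockouts included, had 10458 to 23845 counts of Xist and 3 to 5 of Y-linked genes. Tfrc, the floxed gene, was at 138.5, 167.8 and 62.0 CPM (counts scaled to a library of 1000000) in controls 1 to 3 and at 214.4, 86.0 and 40.6 CPM in knockouts 1 to 3, with a log2 fold change of -0.11 (SE 0.62, adjusted p = 0.911, edgeR). The highest value was thus in the library labelled knockout 1, and the whole-gene count gave no check of the labels. Kidney marker genes (Umod, Slc34a1 and Aqp2) had counts in all 6 libraries. Nothing in the labels says that libraries came from separate litters, so p-values measure the spread between these 6 libraries. CPM values are normalised by TMM (trimmed mean of M-values), and log2 fold changes are knockout minus control.

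Promoter stretches of some inducible ligands are printed 5′ to 3′ on the strand of the gene, from RefSeq on build GRCm38.p6, with the matched motif in capitals, and are those of the called ligands with an NF-kB match before the start site, together with their neighbour Cxcl3, which stayed near 0 counts. Ccl27a, a ligand that was not called, also held a match, after its start site. The stretches are chr5:90891154-90891204 (Cxcl1, plus strand), chr5:90903782-90903832 (Cxcl2, plus strand), chr5:90786008-90786058 (Cxcl3, plus strand), chr1:83116666-83116715 (Ccl20, plus strand), chr11:83578642-83578691 (Ccl9, minus strand) and chr5:92348963-92349122 (Cxcl10, minus strand).
Cxcl1: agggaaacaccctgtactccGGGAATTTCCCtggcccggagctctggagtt
Cxcl2: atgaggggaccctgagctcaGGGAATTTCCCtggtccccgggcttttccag
Cxcl3: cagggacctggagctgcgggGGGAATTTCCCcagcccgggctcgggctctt
Ccl20: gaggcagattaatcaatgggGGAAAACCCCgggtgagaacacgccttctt
Ccl9: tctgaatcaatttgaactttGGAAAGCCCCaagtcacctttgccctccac
Cxcl10: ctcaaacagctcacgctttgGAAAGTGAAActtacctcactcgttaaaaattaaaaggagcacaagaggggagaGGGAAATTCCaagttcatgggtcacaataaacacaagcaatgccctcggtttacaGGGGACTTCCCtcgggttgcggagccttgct
Cxcl1, Cxcl2 and Cxcl3 held the same run of 11 capitals, in which the NF-kB consensus matched on both strands. In Cxcl10 the first capitals are the ISRE core (GAAANNGAAA) and the later 2 runs are NF-kB matches. Searched on both strands of 300 bases around each start site (250 before, 50 after), the NF-kB consensus was found for 9.55% of all 27025 genes in the promoter table, and for 6 of the 18 reported ligands and 1 of the 9 reported receptors (Ccr1) that had a RefSeq entry. The ISRE core was found for 3.99% of all genes, for 2 of the 18 ligands (Cxcl10 and Cxcl14) and for 0 of the 9 receptors. Cxcl3, with the same 11 bases as Cxcl1 and Cxcl2, had 0, 3 and 6 counts in controls and 1, 5 and 0 in knockouts.

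Of the 27 reported ligands, 16 rose in knockouts and 0 fell, at an adjusted p under 0.05 (edgeR, quasi-likelihood, with p-values adjusted by Benjamini-Hochberg over every gene in the fit). Of the 13 reported receptors, 12 could be tested, and 8 of them rose and 0 fell. Over all 15171 genes tested, 17.2% were called and 10.6% were called and higher. The 24 called genes were all at least 2-fold higher. The median log2 fold change was 3.07 over the ligands and 2.55 over the 12 receptors, beside 0.02 over all genes. Without knockout 2 the receptor median was 1.56, over 13 receptors, because Ccr9 passed the filter in that fit. Over the 13 ligands and 6 receptors with 10 counts in all 3 controls the median was 1.62 and 2.17. All 3 knockouts lay above all 3 controls for 18 of the 27 ligands and 9 of the 13 receptors, beside 23.8% of all genes. Ccl25 was the 1 reported gene whose knockouts all lay below, beside 3368 of all 15171 genes tested.

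These counts favour the group in which a gene is high, because 7 of the 40 genes reached 10 counts in no control and passed only through the knockouts. A further 14 reached 10 counts in 1 or 2 controls, and so also needed knockouts to pass. Among the 19 genes with 10 counts in all 3 controls, 6 of 13 ligands and 5 of 6 receptors rose. The called genes had adjusted p-values from 0.0271, the smallest in the whole table, to 0.0498. Without any 1 control, or without knockout 3, 0 ligands and 0 receptors were called by edgeR, with 17 to 20 ligands and 9 receptors still at an unadjusted p under 0.05. Over all genes these fits called 0 genes without a control and 2 without knockout 3. Without knockout 2, 1 ligand (Ccl5) and 0 receptors were called, beside 73 of 15408 genes (0.474%), with 18 ligands and 8 receptors at an unadjusted p under 0.05. Without knockout 1, 19 ligands and 9 receptors were called, beside 18.0% of all genes called and higher. DESeq2's Wald test called 19 ligands and 9 receptors higher and Ccl25 lower (17.1% of all genes higher), and limma-voom called 13 and 4 higher (7.33% of all genes higher). The sign of 37 of the 39 tested genes was the same in every alternative fit, and the 2 exceptions were Ccl28 and Cxcl12.

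**Figure D1:**
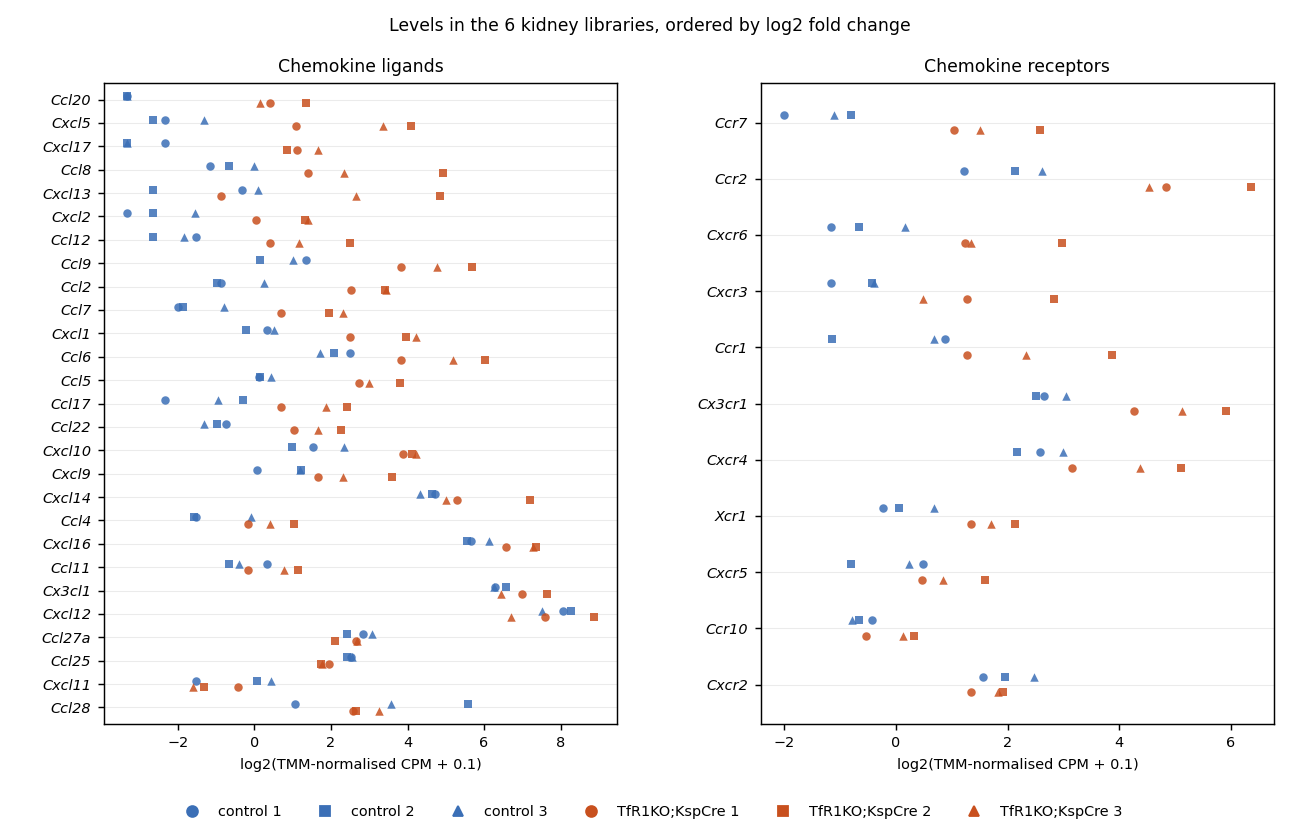
Level of the tested ligands (left) and receptors (right) in each library, as log2 of TMM-normalised CPM plus 0.1, ordered by log2 fold change, for 38 of the 39 tested genes, with controls in blue and TfR1KO;KspCre libraries in orange. Knockout 2 (square) is the highest knockout for 30 of the 40 reported genes, and the library labelled knockout 1 (circle) is the lowest for 29.

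**Figure D2:**
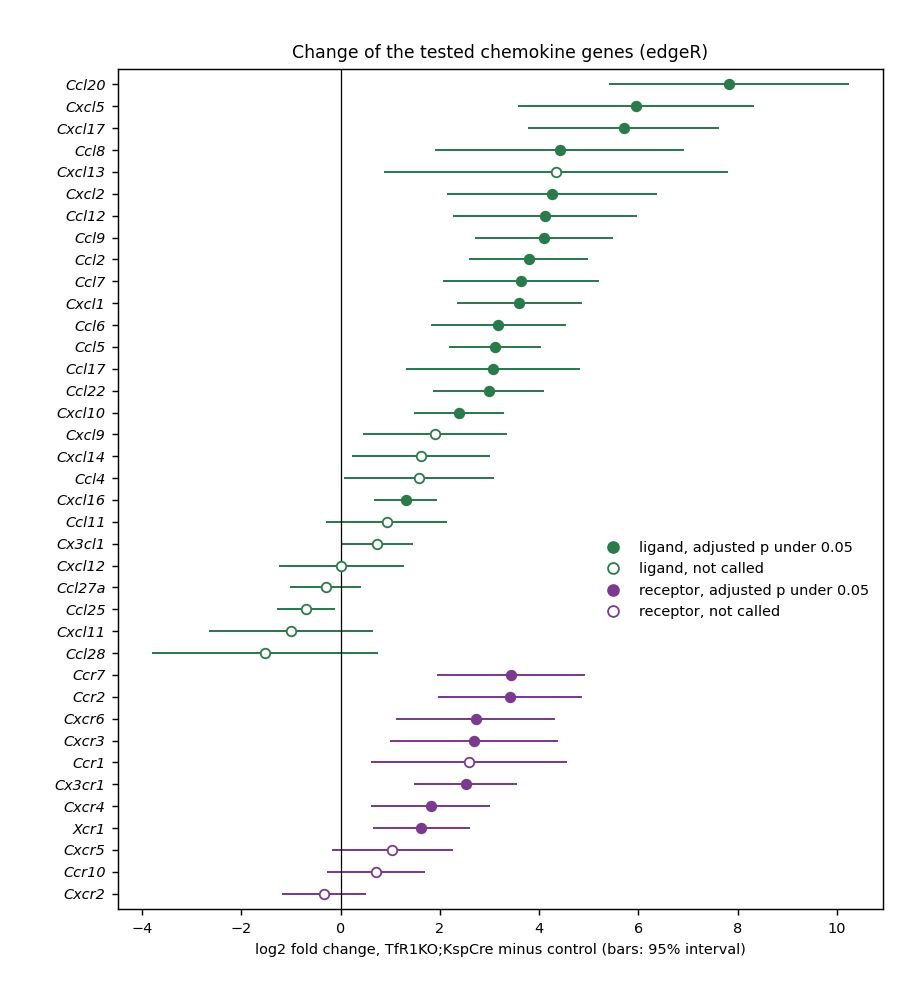
Log2 fold change (knockout minus control, x axis) of 38 of the 39 tested genes with its 95% interval as a bar. Filled points have an adjusted p under 0.05 and open points do not; 16 ligands and 7 receptors are filled, all to the right of 0.

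Ccl2, Ccl7 and Ccl12, ligands of Ccr2, rose together, as did Ccr2, the receptor that brings monocytes out of the bone marrow and into tissue. Ccl2 (MCP-1, chromosome 11, 81849073 to 81850955, mm9) was at 0.448, 0.411 and 1.08 CPM in controls and 5.69, 10.5 and 10.7 CPM in knockouts. No knockout came near the highest control, and the log2 fold change was 3.79 (SE 0.50, adjusted p = 0.0271, edgeR). Ccl7, which acts on Ccr2 and other receptors, had 3, 3 and 8 counts in controls and 31, 75 and 64 in knockouts, a log2 fold change of 3.64 (SE 0.66). Ccl12, a mouse ligand of Ccr2, had 5, 1 and 3 counts against 25, 110 and 28 (log2 fold change 4.11, SE 0.77, and 3.28 without knockout 2). In both genes the lowest knockout exceeded the highest control more than 2-fold in counts. Ccl8 had 7, 9 and 15 counts in controls and 52, 603 and 65 in knockouts, so that its mean of 12.6 CPM in knockouts rested largely on knockout 2. Its log2 fold change of 4.41 (SE 1.05, adjusted p = 0.038) was 2.66 without that library. Ccl11 (eotaxin), which attracts eosinophils through Ccr3, lies in the same stretch of chromosome 11 (81849073 to 82119192) and overlapped between groups, at 0.529 to 1.14 CPM in controls and 0.785 to 2.11 CPM in knockouts (log2 fold change 0.93, 95% interval -0.27 to 2.13, adjusted p = 0.216, edgeR). Of the 5 reported ligands in that stretch 4 were therefore called, and the sixth gene there, Ccl1, had at most 1 count in a control and 2, 11 and 2 counts in knockouts.

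Further ligands of macrophage and T cell receptors lie in another stretch of chromosome 11 (83339280 to 83478185), where 3 of the 4 reported ligands rose. Ccl5 (RANTES), a product of T cells, macrophages and injured tubular cells, was at 0.995, 0.999 and 1.26 CPM in controls and 6.53, 13.8 and 7.89 CPM in knockouts. The groups were far apart beside the spread of each, and the log2 fold change was 3.11 (SE 0.38, adjusted p = 0.0271). Ccl6, a Ccr1 ligand found in rodents and made by macrophages and other myeloid cells, was at 5.52, 4.11 and 3.18 CPM in controls and at 14.0, 65.5 and 36.5 CPM in knockouts (log2 fold change 3.17, SE 0.57). Ccl9, which also acts on Ccr1, rose from 2.44, 0.999 and 1.92 CPM to 14.0, 51.7 and 27.0 CPM (log2 fold change 4.10, SE 0.58). For both genes knockout 2 was the highest library and the library labelled knockout 1 the lowest knockout. Ccl4 (MIP-1 beta) was not called, at 0.235 to 0.840 CPM in controls and 0.785 to 1.96 CPM in knockouts (log2 fold change 1.59, SE 0.63, adjusted p = 0.113, edgeR). Ccl3 (MIP-1 alpha) was under the minimum, with 4, 1 and 8 counts in controls and 8, 33 and 13 in knockouts.

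Of the ligands of Cxcr2, which attract neutrophils, Cxcl1, Cxcl2 and Cxcl5 rose, Cxcl3 was under the minimum, and Cxcr2 itself was not called. Cxcl1 (KC, chromosome 5, 91320267 to 91322141, mm9) was at 1.14, 0.764 and 1.32 CPM in controls and 5.50, 15.6 and 18.5 CPM in knockouts, a log2 fold change of 3.60 (SE 0.53, adjusted p = 0.0271). Cxcl2 (MIP-2) had 0, 1 and 4 counts in controls and 19, 48 and 33 in knockouts (log2 fold change 4.26, SE 0.88). Cxcl5, which epithelial cells release, had 2, 1 and 5 counts in controls and 41, 340 and 132 in knockouts, a log2 fold change of 5.95 (SE 0.99). Over the alternative fits the value of Cxcl2 ranged from 3.63 to 5.83 and that of Cxcl5 from 5.26 to 6.79. Cxcl2 and Cxcl5 were close to the floor of detection in controls, and all 3 genes separated the groups without overlap. They share a stretch of chromosome 5 (91188325 to 91334935) with Cxcl3, described with the promoters above, and with Cxcl15 (lungkine), which had 2, 3 and 0 counts in controls and 18, 165 and 1 in knockouts. Cxcr2 was at 2.84, 3.76 and 5.46 CPM in controls and 2.45, 3.66 and 3.45 CPM in knockouts, with overlapping groups (log2 fold change -0.33, 95% interval -1.16 to 0.49, adjusted p = 0.51, edgeR). Cxcr1, the other receptor of this group, had 0 counts in all 6 libraries.

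Of the interferon-inducible ligands of Cxcr3, the receptor of activated T cells, 1 of 3 rose. Cxcl10 (IP-10) was at 2.79, 1.88 and 4.92 CPM in controls and at 14.5, 17.3 and 18.5 CPM in knockouts, and the 3 knockouts lay close to each other (log2 fold change 2.39, SE 0.37, adjusted p = 0.0277). Cxcl9 (Mig) was at 0.945, 2.23 and 2.16 CPM in controls and 3.04, 12.0 and 4.90 CPM in knockouts. Its groups did not overlap, but it missed the threshold (log2 fold change 1.91, SE 0.60, adjusted p = 0.0673, edgeR), and without knockout 2 the value was 1.15. Cxcl11 (I-TAC) had 5, 16 and 21 counts in controls and 13, 6 and 3 in knockouts, a log2 fold change of -1.0 (SE 0.69, adjusted p = 0.316, edgeR). The annotation holds no protein-coding transcript of Cxcl11, so its counts may not stand for a working ligand. Exons of Cxcl10 and of Cxcl11 overlap those of a gene on the opposite strand (Art3 and Gm2673), and since the strand setting of the counting is not known, some of their counts may belong to those genes. Cxcr3 was at 0.348, 0.646 and 0.660 CPM in controls and at 2.31, 7.03 and 1.30 CPM in knockouts, higher by 2.69 on the log2 scale (SE 0.70, adjusted p = 0.0451, edgeR). Without knockout 2 that value was 1.72 and the call was lost, as it was with limma-voom.

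Ccl17 (TARC) and Ccl22 (MDC), products of dendritic cells and macrophages that act on Ccr4, rose side by side. Ccl22 was at 0.498, 0.411 and 0.300 CPM in controls and 1.96, 4.72 and 3.06 CPM in knockouts (log2 fold change 2.98, SE 0.46, adjusted p = 0.0277). Ccl17 had 2, 12 and 7 counts in controls and 31, 104 and 46 in knockouts (log2 fold change 3.07, SE 0.73, adjusted p = 0.0384). Their receptor Ccr4 lay just outside the minimum, with 1, 2 and 3 counts in controls and 9, 27 and 11 in knockouts. Genes just inside the minimum were Ccr9, with 4, 6 and 10 counts in controls and 10, 13 and 6 in knockouts, and Cxcl11. Ccr9 passed the minimum but was left out of the test by the filter on low counts.

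Ccl20, made by epithelial cells and the ligand of Ccr6, had 0 counts in all 3 controls and 25, 49 and 13 counts in knockouts. Set against a floor of 3 counts over the control group, it was at least 29.2-fold higher (adjusted p = 0.0282, edgeR). Cxcl17, a mucosal chemokine-like protein, had 2, 0 and 0 counts in controls and 42, 34 and 40 in knockouts, a ratio of 58.5 with an exact 95% interval of 15.8 to 488.4 for counting error alone (adjusted p = 0.0271, edgeR). Both genes had counts in every knockout and next to none in controls, and for Cxcl17 the 3 knockouts were alike. Ccr6 was under the minimum, with 13 counts in knockout 2 and at most 3 in any other library.

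Per kilobase of transcript, among the ligands with a known length, the most abundant chemokines of control kidney were Cxcl12, Cx3cl1, Cxcl16 and Cxcl14, and of these 4 only Cxcl16 was called. Cxcl12 (SDF-1), a stromal and endothelial chemokine that acts on Cxcr4, was at 265.3, 307.0 and 183.3 CPM in controls and 193.6, 466.7 and 104.4 CPM in knockouts. Knockouts lay on both sides of the controls, and the log2 fold change was 0.02 (95% interval -1.22 to 1.25, adjusted p = 0.983, edgeR). Without knockout 2 it was -0.76. Cx3cl1 (fractalkine), which is membrane-bound until a protease sheds it, was at 78.4, 95.3 and 76.7 CPM in controls and 127.5, 201.1 and 87.0 CPM in knockouts (log2 fold change 0.73, SE 0.30, adjusted p = 0.121, edgeR). Knockout 3 lay below control 2, so the groups overlapped. Cxcl16, the other membrane-bound chemokine and the ligand of Cxcr6, was at 50.6, 46.4 and 69.2 CPM in controls and 94.7, 162.4 and 154.9 CPM in knockouts. It had the smallest rise of the 24 called genes and stood well above the spread of its groups (log2 fold change 1.31, SE 0.26, adjusted p = 0.0306, edgeR). Exons of Cxcl16 overlap those of Zmynd15 on the opposite strand. Cxcl14, expressed by epithelia, was at 26.2, 24.7 and 20.1 CPM in controls and 38.8, 146.8 and 32.3 CPM in knockouts, apart but with knockout 2 far above the rest (log2 fold change 1.62, SE 0.58, adjusted p = 0.0871, edgeR). Without knockout 2 it was 0.59.

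The remaining ligands were not called. Cxcl13, the B cell attractant that acts on Cxcr5, had 14, 1 and 16 counts in controls and 9, 572 and 81 in knockouts, so its log2 fold change of 4.35 (SE 1.45, adjusted p = 0.0755, edgeR) rested on knockouts 2 and 3 and was 2.49 without knockout 2. Ccl25, the ligand of Ccr9, was the only reported gene that was lower in all knockouts, at 5.62, 5.23 and 5.76 CPM in controls and 3.73, 3.26 and 3.29 CPM in knockouts. Its 2 groups were each tight, and it missed the threshold (log2 fold change -0.69, SE 0.24, adjusted p = 0.0817, edgeR), although DESeq2's Wald test called it. Ccl27a and Ccl28 are epithelial ligands of Ccr10. Ccl27a was at 7.02, 5.29 and 8.34 CPM in controls and 6.23, 4.17 and 6.36 CPM in knockouts (log2 fold change -0.30, SE 0.30, adjusted p = 0.481, edgeR), and its exons overlap those of Il11ra1 on the opposite strand. Of the 100-base stretches of its transcript, 73.9% occur in no other gene. Ccl28 had 40, 817 and 197 counts in controls and 120, 123 and 124 in knockouts. Control 2 alone set its log2 fold change of -1.52 (SE 0.95, adjusted p = 0.275, edgeR), which was 0.04 without that library.

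Among receptors of monocytes and macrophages, Ccr2 and Cx3cr1 rose and Ccr1 was not called. Ccr2 (chromosome 9, 124016689 to 124028296, mm9), the receptor of inflammatory monocytes, was at 2.24, 4.29 and 6.06 CPM in controls and 28.4, 81.9 and 23.1 CPM in knockouts, a log2 fold change of 3.41 (SE 0.61, adjusted p = 0.029). Cx3cr1, the fractalkine receptor of resident macrophages and patrolling monocytes, was at 6.17, 5.58 and 8.16 CPM in controls and 19.0, 60.6 and 34.8 CPM in knockouts (log2 fold change 2.52, SE 0.43, adjusted p = 0.0282). For both receptors every knockout lay at more than 2 times the highest control. Ccr1, also a myeloid receptor, had 35, 6 and 25 counts in controls and 47, 289 and 64 in knockouts, apart but not called (log2 fold change 2.58, SE 0.83, adjusted p = 0.0685, edgeR). It was called by DESeq2's Wald test and by edgeR without knockout 1, but not by limma-voom, and without knockout 2 its log2 fold change was 1.56. Of the 100-base stretches of the Ccr2 transcript, 99.0% occur in no other gene.

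Among the receptors of lymphocytes and dendritic cells, Ccr7, Cxcr6, Xcr1 and Cxcr4 rose, and Cxcr5 and Ccr10 were not called. Ccr7, through which dendritic cells and naive T cells travel to lymph nodes, had 3, 8 and 6 counts in controls and 40, 118 and 36 in knockouts (log2 fold change 3.44, SE 0.62, adjusted p = 0.0293). Its ligands were at or next to 0, with at most 1 count of Ccl19 in any library and 0 of Ccl21a, Ccl21b and Ccl21c, but these genes have near-identical copies, so a count of unique reads cannot measure them. Cxcr6, on T cells and NKT cells, had 7, 9 and 17 counts in controls and 46, 154 and 32 in knockouts (log2 fold change 2.72, SE 0.67, adjusted p = 0.0403). Xcr1, the receptor of cross-presenting dendritic cells, had 15, 16 and 25 counts against 50, 85 and 41 (log2 fold change 1.63, SE 0.40, adjusted p = 0.0406). Both receptors were higher in every knockout than in any control. Xcl1, the ligand of Xcr1, stayed under the minimum with at most 1 count in a control and 3, 21 and 9 counts in knockouts. Cxcr4, on most leukocytes and on some endothelial and epithelial cells, was at 5.92, 4.41 and 7.86 CPM in controls and 8.83, 34.6 and 20.5 CPM in knockouts. It lay closest to the threshold of all called genes (log2 fold change 1.81, SE 0.50, adjusted p = 0.0498, edgeR), and it was among the receptors that limma-voom did not call. Cxcr5, on B cells and follicular helper T cells, overlapped between groups (0.470 to 1.29 CPM in controls, 1.28 to 2.91 CPM in knockouts, adjusted p = 0.176, edgeR), as did Ccr10 (0.480 to 0.647 CPM, 0.589 to 1.15 CPM, adjusted p = 0.241, edgeR). The receptors under the minimum were Ccr3, Ccr4, Ccr6, Ccr8 and Cxcr1, of which Ccr8 had at most 1 count in a control and 2, 11 and 1 in knockouts and Ccr3 had 2 counts in control 3, 7 in knockout 2 and 0 elsewhere. Among the ligands, Ccl24 had 4, 1 and 6 counts in controls and 2, 6 and 4 in knockouts, and Ccl26 and Ccl27b had 0 counts in all 6 libraries.

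Pairs of ligand and receptor did not all move alike. Ligands and receptor rose together for Ccl2, Ccl7 and Ccl12 with Ccr2, for Cxcl10 with Cxcr3 and for Cxcl16 with Cxcr6. The ligand was called and the receptor was not for Cxcl1, Cxcl2 and Cxcl5 with Cxcr2 and for Ccl6 and Ccl9 with Ccr1, although Ccr1 was higher in all knockouts. The receptor was called and the ligand was not for Cx3cr1 with Cx3cl1 and for Cxcr4 with Cxcl12. Neither was called for Cxcl13 with Cxcr5 or for Ccl27a and Ccl28 with Ccr10. No difference between a ligand's and its receptor's change was tested. On chromosome 8 (97269490 to 97335935) Ccl22 and Ccl17 rose on either side of Cx3cl1, which was not called.

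The make-up of the chemokine transcripts was compared as shares of all ligand counts, and no share passed the threshold. Ligands together held 9122, 9317 and 6645 counts in controls and 11270, 25811 and 7422 in knockouts, which is 0.0368% to 0.0466% of a control library and 0.0576% to 0.145% of a knockout library. Cxcl12 took 58.5% (Wilson 95% interval 57.4% to 59.5%), 56.1% (55.0% to 57.1%) and 46.0% (44.8% to 47.2%) of the ligand counts of controls 1 to 3, and 35.0% (34.1% to 35.9%), 36.0% (35.4% to 36.6%) and 18.4% (17.5% to 19.3%) of those of knockouts. These intervals cover counting error only. Every knockout share lay below every control share (exact two-sided permutation test, p = 0.1, the smallest that 3 against 3 libraries allow). Per kilobase of transcript, over the 37 ligands with a length in the annotation, the share of Cxcl12 was 33.4% ± 7.28 (SD, n = 3) in controls and 12.3% ± 5.06 (SD, n = 3) in knockouts (exact p = 0.1). Cxcl12, Cx3cl1, Cxcl16 and Cxcl14 together went from 77.5% ± 5.35 to 50.7% ± 8.80 of the ligand transcripts per kilobase, and the Ccl ligands from 18.2% ± 3.44 to 34.0% ± 5.10 (SD, n = 3 each, exact p = 0.1 for both). By counts alone the Ccl share was 9.30% ± 3.21 and 17.0% ± 4.87 with overlapping groups (exact p = 0.2, n = 3 each), and 817 of the 1155 Ccl counts of control 2 were of Ccl28. Of the 5 shares compared, 4 had a p of 0.1 and a Benjamini-Hochberg adjusted value of 0.125, so none of them could pass the threshold.

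**Figure D3:**
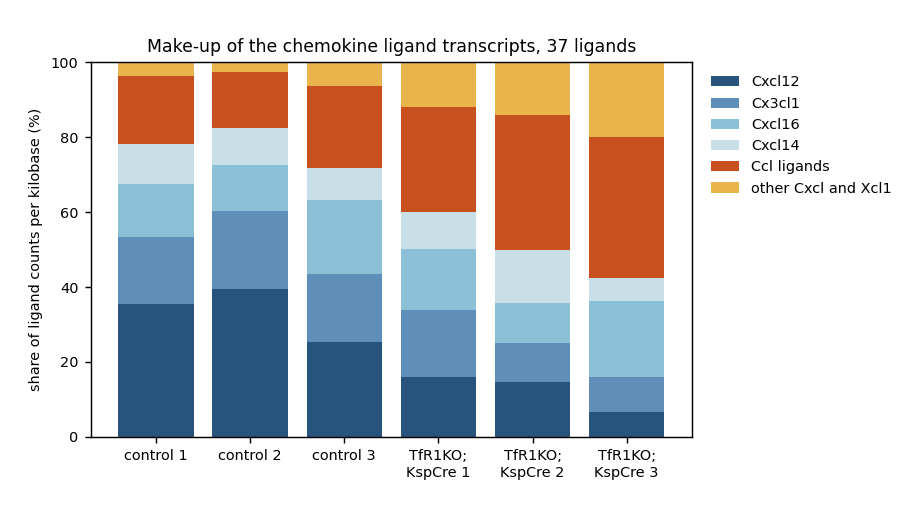
Share of each library's chemokine ligand counts per kilobase (y axis, %) held by 4 single ligands, by all Ccl ligands and by the other ligands, for the 37 ligands with a known transcript length. The share of Cxcl12 is 25.4% to 39.5% in controls and 6.56% to 15.9% in knockouts, and that of the Ccl ligands is 14.8% to 21.7% and 28.2% to 37.8%.

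In mean CPM per kilobase, a level that can be compared between genes with a known transcript length (which leaves out Ccl28), the order in controls was Cxcl12 (44.8), Cx3cl1 (25.2), Cxcl16 (20.5), Cxcl14 (13.0), Ccl27a (7.80) and Ccl25 (5.24). Cxcl16 lay above Cx3cl1 in control 3, so that pair does not differ beyond its spread. In knockouts the means were 50.9 for Cxcl16, 45.3 for Cxcl12, 41.8 for Cx3cl1, 39.8 for Cxcl14, 26.9 for Ccl6, 24.7 for Ccl8, 17.6 for Ccl5, 15.3 for Cxcl10 and 13.8 for Cxcl1. Their order was not the same in each knockout. Ccl8 took a larger share per kilobase than Ccl5 in knockout 2 (10.4% and 4.53%) and a smaller one in the other knockouts, and in knockout 3 Ccl6 (8.97%) lay above Cxcl12 (6.56%) and Cxcl14 (6.26%). The highest mean receptor level per kilobase in both groups was that of Cxcr4, at 3.36 in controls and 11.8 in knockouts, where the mean was 10.2 for Cx3cr1 and 8.30 for Ccr2, with the 3 within the spread between knockouts.

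Genes that belong to chemokine biology but carry other names did not pass the test. Of 10 such genes 7 were tested and 0 were called by edgeR, with 2 at an unadjusted p under 0.05. Their median was 1.24 (log2 fold change). Ackr3, the scavenger receptor of Cxcl12, was at 34.9 to 62.6 CPM in controls and 52.0 to 68.6 CPM in knockouts (log2 fold change 0.31, SE 0.24, adjusted p = 0.366, edgeR). Ackr2, a scavenger of CC chemokines, was the nearest to the threshold (log2 fold change 1.57, SE 0.55, adjusted p = 0.0826, edgeR). Rarres2 (chemerin) had a log2 fold change of 1.28 (SE 0.50, adjusted p = 0.11, edgeR) and its receptor Cmklr1 one of 0.91 (SE 0.40, adjusted p = 0.137, edgeR). Pf4, a platelet chemokine, had 191 counts in knockout 2 and 13 to 31 in the other libraries, and its adjusted p was 0.132 (edgeR). Ackr4 and Ccrl2, an atypical receptor and a related surface protein, stayed uncalled at 1.24 and 0.55 (log2 fold change). Ppbp, Ackr1 and Ccr1l1 were not tested. Ppbp, a platelet chemokine that yields a Cxcr2 ligand, had 9, 10 and 19 counts in controls and 6, 6 and 5 in knockouts, and Ackr1 had 2, 1 and 1 counts in controls and 9, 39 and 13 in knockouts.

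Genes of receptor signalling and of induction rose as well. Of 26 genes of receptor signalling (G proteins, PI3K gamma, Rac activators, arrestins and receptor kinases) 17 rose and 0 fell (median log2 fold change 1.20), and the most abundant of them, Rac1 and Gnb1, were not called (0.09 and 0.50). Of 21 inducers and NF-kB genes 16 were tested, and 13 rose and 0 fell, with a median of 1.51. Rela, a subunit of NF-kB, was at 55.2 to 58.6 CPM in controls and 84.5, 86.4 and 127.2 CPM in knockouts (log2 fold change 0.80, SE 0.19, adjusted p = 0.0365, edgeR). Tnf, a cytokine that induces chemokines, had 2, 2 and 8 counts in controls and 10, 38 and 64 in knockouts and was left out of the test by the filter. Il1b had 21, 15 and 66 counts in controls and 57, 473 and 161 in knockouts (log2 fold change 2.73, SE 0.89, adjusted p = 0.0724, edgeR). Among 8 tested proteases that shed or trim chemokines, the matrix metalloproteinases Mmp2, Mmp7, Mmp12 and Mmp14 rose (log2 fold changes 2.99, 6.57, 4.63 and 2.89), and Adam10 and Adam17, which shed Cx3cl1 and Cxcl16, were not called (0.52 and 0.44), nor was Dpp4, which shortens several chemokines (-0.24).

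In whole kidney, more cells of a type and more RNA per cell cannot be told apart. Markers of leukocytes moved with the chemokines, and their part in the result was not tested. All 5 pan-leukocyte markers rose, and their summed level was 42.2 to 60.2 CPM in controls and 174.4 to 470.5 CPM in knockouts. Ptprc (CD45) rose by 2.38 and Laptm5 by 2.74 on the log2 scale. Of 10 macrophage markers 9 rose, with a sum of 186.0 to 210.9 CPM in controls and 574.7 to 2064 CPM in knockouts. Among them were Lyz2 (log2 fold change 3.99) and the F4/80 gene Adgre1, at 3.54 to 5.62 CPM in controls and 21.9, 93.4 and 22.2 CPM in knockouts, while Csf1r was not called (log2 fold change 0.28). Of 10 T cell markers 7 rose, with a sum of 6.72 to 9.85 CPM in controls and 27.9 to 88.4 CPM in knockouts. Cd3e, a subunit of the T cell receptor complex, had 14, 6 and 10 counts in controls and 59, 140 and 46 in knockouts, and Lck and Cd4 rose by 2.68 and 2.63 (log2). Of 8 dendritic cell markers 6 rose (summed 17.2 to 17.9 CPM in controls, 48.9 to 112.9 CPM in knockouts), with Itgax at a log2 fold change of 3.83 and Zbtb46, not called, at 0.30.

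Other leukocyte lists were less clear. Of 10 neutrophil markers 4 were tested and 0 were called by edgeR (1 at an unadjusted p under 0.05), with a sum of 5.41 to 8.82 CPM in controls and 8.0 to 34.1 CPM in knockouts. S100a8 had 9, 13 and 23 counts in controls and 12, 111 and 35 in knockouts, Csf3r and S100a9 had log2 fold changes of 1.57 and 1.49, and Ly6g had at most 2 counts in any library. Their sum was highest in knockout 2, and the 4 tested markers had a median log2 fold change of 1.53. Of 7 tested B cell markers 1, Blk, was called (log2 fold change 2.61), 6 were at an unadjusted p under 0.05, and neither Jchain (4.15) nor Cd79b (1.66) was called. Their sum of 346.7 CPM in knockout 2, beside 24.8 and 30.4 CPM in the other knockouts, was mostly Jchain, at 313.0 CPM. Of 3 tested natural killer cell markers 0 were called by edgeR (2 at an unadjusted p under 0.05), Klrk1 and Nkg7 having log2 fold changes of 2.62 and 1.90. No marker of these leukocyte lists was at 0 in all libraries.

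**Figure D4:**
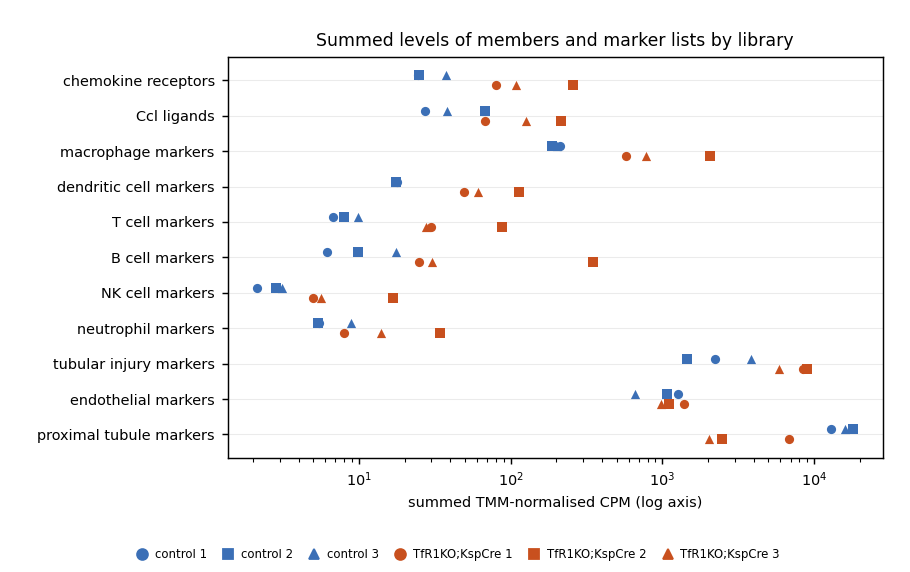
Summed TMM-normalised CPM (x axis, log scale) of the 18 chemokine receptors, the Ccl ligands and 9 lists of cell type markers in each library. The receptors sum to 24.7 to 37.7 CPM in controls and 80.5 to 256.4 CPM in knockouts, and knockout 2 (square) is highest in every leukocyte list.

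The lists of kidney cells moved in both directions, and their part in the chemokine result was not tested either. Of 8 tubular injury markers 6 rose, with a sum of 1444 to 3849 CPM in controls and 5886 to 8972 CPM in knockouts, and the most abundant, Spp1 and Clu, missed the threshold (log2 fold changes 1.60 and 1.28). Col1a1, Col3a1, Acta2 and Fn1 rose among the 8 fibroblast and pericyte markers (summed 339.3 to 647.3 CPM in controls, 1015 to 4321 CPM in knockouts), with Col3a1 at 3.36 and Fn1 at 3.04 on the log2 scale. Of 4 lymphatic endothelial markers Pdpn rose (1.97), and Lyve1 (3.37), Flt4 (0.31) and Prox1 (-1.78) did not pass the test. Synpo rose among the podocyte markers (1.05), and Podxl (0.51) did not pass it. Of 8 endothelial markers 0 were called by edgeR (2 at an unadjusted p under 0.05), Plvap and Eng being at -0.07 and 0.43, and the sums overlapped at 663.7 to 1262 CPM and 985.5 to 1393 CPM. Of 8 proximal tubule markers 6 fell, Slc34a1 by 2.12 on the log2 scale, with a sum of 12889 to 18016 CPM in controls and 2026 to 6873 CPM in knockouts, and Slc27a2 was not called (-2.12). Of 6 markers of the thick ascending limb, a segment in which KspCre acts, 0 were called by edgeR (1 at an unadjusted p under 0.05), with Umod at -1.53 and Slc12a1 at -1.46. Their summed level was 6293 CPM in the library labelled knockout 1, within the 4025 to 9828 CPM of the controls, and 884.9 and 1208 CPM in knockouts 2 and 3, and without knockout 1 Umod was at -3.55 and Slc12a1 at -2.67. Of 8 distal and collecting duct markers only Pvalb fell (log2 fold change -3.25), and Slc12a3 and Calb1 were at -1.08 and -0.73. The sum of this list was 2753 to 3824 CPM in controls and 3478, 1915 and 522 CPM in knockouts 1 to 3. The library labelled knockout 1 was the lowest knockout in the pan-leukocyte, macrophage and dendritic cell sums, as it was for 29 of the 40 chemokine genes, and the highest knockout in the proximal tubule sum.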

How the data were processed

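Poly-A RNA of 6 whole kidneys (3 Control, 3 TfR1KO;KspCre) was measured by single-end RNA-seq. Raw counts per gene were deposited, which the authors made with CASAVA 1.8.2, Trimmomatic, TopHat2 2.0.11 on mm9 and HTSeq (tools and versions from the submitters' processing notes and the study's methods), keeping uniquely mapped reads. Unique mapping lowers the counts of near-identical genes. The gene annotation and strand setting are not given in the sources used here. The study used DESeq2 for its own comparison.

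Groups and replicate numbers came from the sample titles, and 0 sample columns were left unused. Counts were filtered with filterByExpr (minimum count 10, minimum total 15), normalised by TMM and tested with edgeR 4.0.16 (quasi-likelihood, genotype alone, Benjamini-Hochberg over 15171 genes) in R 4.3.3, after the scripts were tested on simulated data. Intervals of log2 fold changes use the t distribution with residual and prior degrees of freedom. Alternatives were DESeq2 1.42.0, limma 3.58.1 (voom), other scalings and filters, the newer quasi-likelihood version, a replicate block, the Xist to Y-linked ratio as covariate and leaving out libraries. Leaving out the library labelled knockout 1 and control 2 together was chosen after seeing the data. Shares were compared by exact permutation in scipy 1.17.1 (Python 3.11.15), and bounds use a floor of 3 counts.

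Genes named are the members, with changes for those with at least 10 counts in 3 or more libraries. From the lists they are Tfrc, the other chemokine genes, those 2 per list with the highest mean CPM and a few preset markers. Ly6g, and called genes named because few of their list were called, were singled out after their values were seen. A few of these genes are counted but their own values are not reported here. Members and lists were chosen with earlier results of these data known. Positions are from GENCODE M1 on NCBIM37 (mm9), which holds 56 of the 57 members (Ccl28 is the exception). Per-kilobase levels use the longest protein-coding transcript. RefSeq promoters (GRCm38.p6) matched 41 members. The NF-kB consensus was GGG, a purine, 2 bases of any kind, 2 pyrimidines and CC. Uniqueness was counted over 100-base words of these transcripts. Replicates of a group differed by more than sampling noise, so each library counted as 1 replicate.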

Additional observations from a re-analysis of the deposited data

How the results depend on the processing

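The number of called genes depended on the libraries more than on scaling. Leaving out 1 library at a time, the ligands called ranged from 0 to 19 (main value 16), the receptors from 0 to 9 (main value 8), the genes of the pathway and marker lists (160 tested) from 0 to 121 (main value 82) and all genes from 0 to 5332 (main value 2612). The receptor median of 2.55 ranged from 1.56 to 2.88 in these fits. It was taken over 12 receptors, or over 13 where Ccr9 passed the filter, as without knockout 2 (1.56). With the Xist to Y-linked ratio as a covariate all 4 counts were 0, with 18 ligands and 9 receptors at an unadjusted p under 0.05. Without the 2 libraries that stood apart (the library labelled knockout 1 and control 2, chosen after seeing the data), 17 ligands and 6 receptors were called. Over all genes that fit called 22.5%. DESeq2's Wald test called 4882 of all genes, and limma-voom called 4 receptors, beside 13.4% of all genes. With at least 10 counts in every library as the filter, 6 ligands and 4 receptors were called, beside 16.6% of all genes. The ligand median was then 1.64. Restricting the members in the same way gave 6 ligands, 5 receptors and a ligand median of 1.62. The cause of these differences was not tested. With library size alone, 18 ligands and 8 receptors were called, beside 24% of all genes, while the median of all genes rose to 0.29.

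The labels give both groups replicate numbers 1 to 3. Deviations of same-numbered libraries correlated at -0.129, 0.0116 and 0.215, so the numbers were not taken to pair the libraries. With the replicate block, 0 ligands, 0 receptors, 0 list genes and 0 of all genes were called, with 21 ligands and 8 receptors at an unadjusted p under 0.05.

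Changes of sign were seen for 2 of the 39 tested members. The log2 fold change of Ccl28 was 0.0074 with the covariate, 0.0395 without control 2 (-2.08 to 0.0395 over the libraries left out) and 0.17 without the 2 libraries that stood apart. Cxcl12 was at -0.27 with limma-voom, -0.22 with the replicate block, -0.18 without control 3 and -0.76 without knockout 2 (-0.76 to 0.39 over the libraries left out). Of the other alternative values of single members, 443 kept their direction and their side of the threshold, 179 kept their direction and lost the call, and 13 gained a call. Low counts limit Ccl20, Cxcl17, Cxcl2, Cxcl5 and Ccl12, whose controls held between 0 and 5 counts each.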
